A study of Mus musculus with 11 samples.

Results

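The comparison was between lungs of mice carrying an mTertCD allele in the p21 gene (Cdkn1a) and lungs of p21 heterozygotes, profiled cell by cell. It used 5 of the 11 libraries of the series, chosen by the genotype in their labels: 2 libraries labelled p21 mTertCD (+/mTertCD), called p21mTertCD, and 3 libraries labelled p21 heterozygotes (+/-), called p21Het. Mice of both groups had 1 normal p21 allele. The other allele was absent in p21Het and held mTertCD in p21mTertCD, so normal p21 dose was matched and an intact p21 pair was in neither group. All 5 libraries were labelled 18 months of age except p21Het replicate 1, whose age field gave 19 months and whose title gave 18. That library belonged to an earlier deposit, and the other 4 to a later one. The labels did not expand CD, a suffix commonly used for a catalytically dead enzyme, and they gave neither sex, strain, number of mice per library nor the 3′ end of the inserted transcript. The series also held 5 libraries from mice with the mTert allele at p21 (p21mTert) and 1 wild-type library (WT), which served as reference ranges; p21mTert also entered the fit that estimated the spread. WT and p21mTert replicate 1 belonged to the earlier deposit. The age field of p21mTert replicate 1 gave 20 months and its title 18, and the other reference libraries were labelled 18 months. The question addressed was what the CD version of the allele did by itself in the aged lung, within a study of mTert expressed from the p21 gene in capillary loss and emphysema.

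Telomerase reverse transcriptase, encoded by Tert, is the catalytic protein of the enzyme that extends telomeres, and most adult cells hold little of it. p21 inhibits cyclin-dependent kinases and is switched on by p53 in stressed and senescent cells, so an allele placed in its gene is expressed where p21 is. Interferon-gamma, secreted by activated T cells and natural killer cells, switches on immunity-related GTPases (Igtp, Irgm2, Ifi47), guanylate-binding proteins (the Gbp genes) and antigen presentation in many cell types, lung endothelium included. Cytotoxic T cells kill targets with perforin and granzymes and release the chemokine Ccl5.

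The results in endothelial cells turn on interferon-gamma GTPase genes, and the promoters of 4 of them are shown so that their shared motifs can be read, chosen after their values were seen. They are RefSeq sequences of build GRCm38.p6, from 250 bases before to 50 bases after the gene's start, written 5′ to 3′ on the gene's strand. Capitals mark 2 motifs searched on both strands: the gamma-activated sequence TTCNNNGAA and the interferon-stimulated response element, searched as GAAA, any 2 bases and GAAA again, or its reverse complement, TTTC, any 2 bases and TTTC. Igtp lies at chr11:58199306-58199605 on the plus strand, Irgm2 at chr11:58214727-58215026 on the plus strand, Gbp7 at chr3:142530086-142530385 on the plus strand and Tgtp2 at chr11:49064163-49064462 on the minus strand.
Igtp: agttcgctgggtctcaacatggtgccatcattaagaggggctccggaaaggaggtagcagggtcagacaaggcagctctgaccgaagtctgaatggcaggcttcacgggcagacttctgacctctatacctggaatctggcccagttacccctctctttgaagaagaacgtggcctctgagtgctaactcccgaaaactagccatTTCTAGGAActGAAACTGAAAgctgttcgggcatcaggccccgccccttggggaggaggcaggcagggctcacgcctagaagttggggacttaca
Irgm2: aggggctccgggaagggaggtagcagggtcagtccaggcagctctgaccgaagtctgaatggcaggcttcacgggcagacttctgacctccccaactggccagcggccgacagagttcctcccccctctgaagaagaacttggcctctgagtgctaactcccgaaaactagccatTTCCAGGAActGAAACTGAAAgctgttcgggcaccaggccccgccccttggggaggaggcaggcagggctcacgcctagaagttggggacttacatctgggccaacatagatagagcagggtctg
Gbp7: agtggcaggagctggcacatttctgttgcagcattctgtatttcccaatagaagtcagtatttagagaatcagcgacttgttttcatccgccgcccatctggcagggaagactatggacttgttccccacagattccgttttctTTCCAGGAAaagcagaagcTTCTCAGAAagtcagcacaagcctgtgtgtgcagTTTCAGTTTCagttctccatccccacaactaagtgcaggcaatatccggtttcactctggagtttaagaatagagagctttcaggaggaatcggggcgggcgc
Tgtp2: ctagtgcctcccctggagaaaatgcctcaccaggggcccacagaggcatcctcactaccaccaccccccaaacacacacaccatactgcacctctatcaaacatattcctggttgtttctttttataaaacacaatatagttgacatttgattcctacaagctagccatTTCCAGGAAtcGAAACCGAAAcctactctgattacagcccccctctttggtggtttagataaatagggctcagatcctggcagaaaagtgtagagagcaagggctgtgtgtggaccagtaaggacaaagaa
Igtp, Irgm2 and Tgtp2 each held the motifs once, a few bases apart, and Gbp7 held the first 2 times and the second once. Of the 14 GTPase genes listed, 9 were matched to 10 promoters. Of these 10 promoters 6 held the first motif and 9 the second. By gene, 6 of the 9 held the first in at least 1 promoter and all 9 the second. Ifi47, a GTPase gene outside the list, held neither in this window. Over all 32851 promoters in the table, 8.30% held the first motif and 3.44% the second. A match describes letters and is not a binding site.

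Whole lungs had been dissociated with enzymes, red cells lysed, and cells captured with the 10x Genomics 3′ assay, in which each unique molecular identifier (UMI) stands for 1 captured RNA molecule. The 5 libraries held 50486510 to 85988955 UMIs. Of 38862 barcodes in their files, 32763 had 1000 to 30000 UMIs with at most 14% from mitochondrial genes and were used, 5598 to 8525 per library. Over all 11 libraries 69267 of 81983 barcodes passed. UMIs were summed per library over 23590 immune cells (at least 1 UMI of Ptprc, the pan-leukocyte CD45), 2745 endothelial cells (at least 2 UMIs of Cldn5 and Cdh5 together, without Ptprc) and 1838 epithelial cells (at least 1 UMI of Epcam, without Ptprc). Only 50 cells met both of the last gates, and any pair of libraries shared 7 to 20 barcodes. Markers went with the gates: surfactant and other alveolar type 2 markers summed to between 114089 and 175832 CPM (UMIs of a gene scaled to a common total of UMIs per sum) in the epithelial sums, and general capillary markers to between 6220 and 7562 CPM in the endothelial sums. RNA of other cells was also in the endothelial sums: alveolar type 2 markers summed there to 12250, 6421 and 5146 CPM in p21Het and to 1165 and 9365 CPM in p21mTertCD, and club and secretory cell markers to 1146 to 13177 CPM in p21Het and to 1526 and 4048 CPM in p21mTertCD. Erythroid markers summed there to 619, 12152 and 8057 CPM in p21Het and to 1221 and 167 CPM in p21mTertCD, with 3 of 8 below every p21Het library. The library was the replicate, and since the labels do not say that each came from its own mouse, p-values measure the spread between libraries. All values below are CPM within the summed cells, and log2 fold changes are p21mTertCD minus p21Het. The ± beside a log2 fold change is an approximate standard error. It was derived as the absolute log2 fold change over the square root of the test's F statistic. A gene was called at an adjusted p under 0.05 in edgeR's quasi-likelihood test (Benjamini-Hochberg over all genes tested in that kind of cell).

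The inserted allele was looked for first through Tert. Immune cells held 0.538, 0.873 and 0.418 CPM of Tert in p21Het replicates 1, 2 and 3, from 16, 39 and 17 UMIs. They held 2.52 and 1.64 CPM in p21mTertCD replicates 1 and 2, from 118 and 64 UMIs. Both p21mTertCD libraries were above all 3 p21Het libraries, by 1.82 ± 0.34 on the log2 scale, and the difference was not called (adjusted p = 0.0665 in edgeR). DESeq2 called it (adjusted p = 0.000385), and so did edgeR without p21mTertCD replicate 2 (2.12, adjusted p = 0.0368). The 5 p21mTert libraries lay between 1.89 and 2.42 CPM, a range that the p21mTertCD values straddled, and WT lay at 0.937 CPM.

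Of the 3 immune gates, the myeloid gate had the largest Tert difference (at least 2 UMIs of Csf1r, Cd68, Itgam, Fcgr3 and Csf3r together, without T or B cell gate genes). Counts there were 0, 12 and 2 UMIs in p21Het and 64 and 33 UMIs in p21mTertCD, or 0 to 0.556 CPM against 2.71 and 2.43 CPM. The pooled level was 10.4-fold higher in p21mTertCD (95% interval 5.92 to 19.7, for counting error only), while edgeR did not call it (3.41 ± 0.70, adjusted p = 0.93). In the T cell gate the groups overlapped, at 1.59, 1.24 and 1.11 CPM in p21Het and 2.16 and 0.742 CPM in p21mTertCD. In the B cell gate they did not, at 0.524, 0.984 and 1.07 CPM in p21Het and 1.43 and 2.00 CPM in p21mTertCD. That rested on 2 and 16 UMIs in p21mTertCD, and Tert was not called there. Endothelial cells held 2.75, 0.224 and 1.97 CPM in p21Het and 6.83 and 6.99 CPM in p21mTertCD, on only 1 to 18 UMIs a library (2.40 ± 0.80, adjusted p = 0.902 in edgeR). Epithelial cells held 0.910 to 1.64 CPM in p21Het and 2.40 and 1.64 CPM in p21mTertCD, groups that met at 1.64 (0.82 ± 0.47, adjusted p = 0.973 in edgeR). Over all passing cells Tert stood at 0.772, 0.842 and 0.544 CPM against 2.59 and 1.90 CPM, a difference of 0.91 in log2(CPM + 1) with an exact 2-sided permutation p of 0.1, the smallest that 2 against 3 libraries allows (0.2 adjusted over Tert and Cdkn1a). UMIs from a 3′ assay cannot tell endogenous Tert from the inserted allele, or an active from an inactive enzyme.

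**Figure D1:**
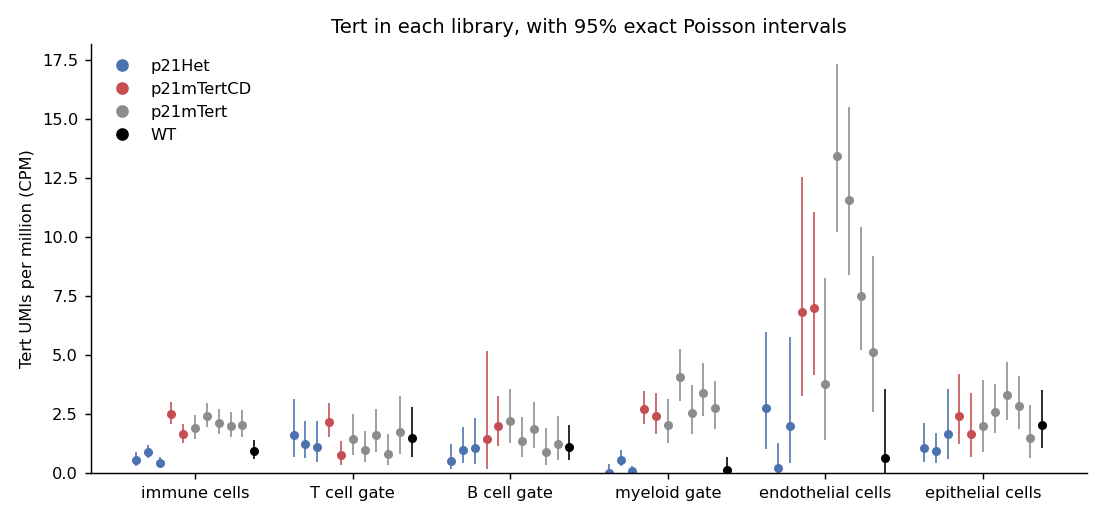
Tert in each of the 11 libraries, in CPM, by kind of cell or gate; points are libraries coloured by group and bars are 95% exact Poisson intervals for counting error. In immune, B cell gate, myeloid gate and endothelial cells both p21mTertCD libraries sit above the 3 p21Het libraries, at 2.52 and 1.64 CPM in immune cells.

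Cdkn1a itself, with 1 normal copy in both groups, overlapped between them in immune, endothelial and epithelial cells. Immune cells held 139, 167 and 177 CPM in p21Het and 181 and 105 CPM in p21mTertCD, endothelial cells 303, 720.2 and 698 against 431 and 426 CPM, and epithelial cells 81.9, 106 and 158 against 107 and 79.5 CPM. The log2 fold changes were -0.11 ± 0.22 in immune, -0.40 ± 0.38 in endothelial and -0.31 ± 0.24 in epithelial cells, with adjusted p-values of 0.935, 1 and 0.973 in edgeR. The immune value turned to 0.25 without p21mTertCD replicate 2. The groups overlapped in the T cell and myeloid gates too. In the B cell gate they did not, at 42.5, 35.4 and 36.8 CPM in p21Het and 17.9 and 23.7 CPM in p21mTertCD (-0.66 ± 0.28, adjusted p = 0.946 in edgeR), from 25 UMIs in p21mTertCD replicate 1 and with p21mTert between 16.9 and 36.7 CPM. Over all cells the exact 2-sided permutation p was 0.5 (adjusted 0.5).

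T cells made up a larger share of the immune cells in both p21mTertCD libraries than in any p21Het library. The T cell gate (at least 2 UMIs of Cd3d, Cd3e and Cd3g together, without Cd79a and Ms4a1) took 16.7%, 27.3% and 18.8% of immune cells in p21Het and 46.5% and 33.9% in p21mTertCD. Both p21mTertCD shares were also above the p21mTert range of 21.5% to 33.7%. Group means were 21% ± 5.64 (SD, n = 3) and 40.2% ± 8.9 (SD, n = 2), a difference of 19.3 percentage points with an exact 2-sided permutation p of 0.1, the smallest possible here, and 0.3 adjusted over the 3 gates. Markers of T cells summed to 945, 946 and 918 CPM in the immune cells of p21Het and to 2372 and 1858 CPM in p21mTertCD, with 10 of the 12 markers higher in both p21mTertCD libraries than in any p21Het library. The 12 include the 3 Cd3 genes that define the gate, so part of this restates the gate. WT (1375 CPM) and p21mTert (1295 to 1663 CPM) also summed above every p21Het library.

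B cells set 1 library apart. The B cell gate (at least 2 UMIs of Cd79a and Ms4a1 together, without Cd3 genes) took 45.9%, 21.1% and 18.4% of immune cells in p21Het, and 2.39% and 28.9% in p21mTertCD. The low share in p21mTertCD replicate 1 was 121 cells, and the p21mTert libraries ranged from 30.4% to 36.3%. The groups overlapped (exact 2-sided permutation p = 0.6). The myeloid gate took 24.6%, 37.4% and 54.1% against 41.8% and 27.9% (exact 2-sided permutation p = 0.9). Within it, neutrophil markers summed to 10567 to 59978 CPM in p21Het and 23642 and 21127 CPM in p21mTertCD, so the p21mTertCD sums lay inside the p21Het range.

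**Figure D2:**
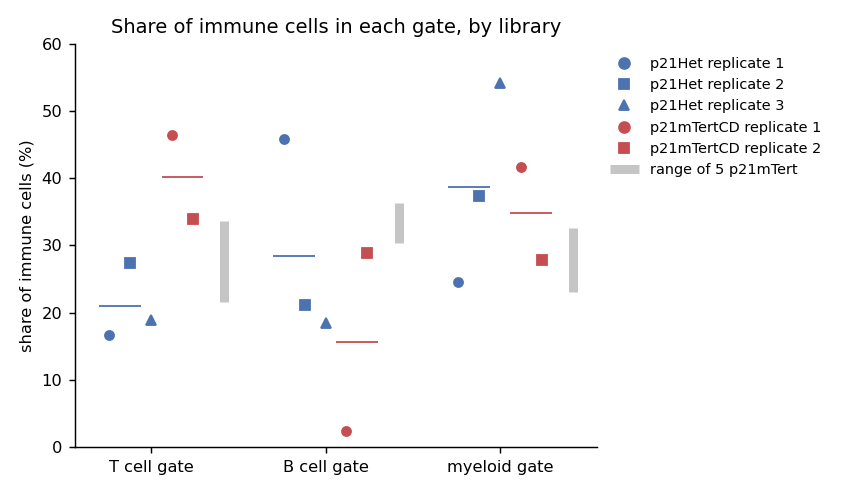
Share of immune cells (percent) in the T cell, B cell and myeloid gates in each library, with group means as horizontal lines and the range of the 5 p21mTert libraries as a grey bar. The T cell shares of p21mTertCD, 46.5% and 33.9%, lie above those of p21Het, and the B cell share of p21mTertCD replicate 1 lies at 2.39%.

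Immune cells made up 75.2%, 58.1% and 79.7% of passing cells in p21Het and 77.1% and 75.5% in p21mTertCD. Endothelial cells made up 9.02%, 12.6% and 4.84% against 5.09% and 8.75%, and epithelial cells 7.46%, 7.54% and 3.39% against 4.54% and 4.18%. All 3 shares overlapped between groups, with exact 2-sided permutation p-values of 0.8, 0.5 and 0.4 (0.8, 0.75 and 0.75 adjusted over the 3). The difference in the immune share, 5.31 percentage points, turned to -1.12 without p21Het replicate 2. Shares after dissociation are those of cells recovered and gated, and a gate on few UMIs moves with depth. Median UMIs per endothelial cell ran from 2974 to 4653.5. Per immune cell the medians were 4334.5, 6644 and 6056 in p21Het and 6975 and 7132 in p21mTertCD. Both p21mTertCD libraries were thus deeper than every p21Het library there. The part of depth in the larger T cell gate share was not tested.

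In the immune sums 66 genes rose and 3 fell in p21mTertCD among 16173 tested, or 0.408% and 0.0185% (0.427% in all). Library values did not overlap for 6.42% of all genes on the higher side and 9.39% on the lower. The 5 with the largest fold among those at 10 CPM or more were Wdr95, Nkg7, Ccl5, Fasl and Ms4a4b, and 4 of these are genes of T and natural killer cells. Ccl5, a chemokine that draws T cells and monocytes, stood at 997, 842 and 1058 CPM in p21Het and at 3813 and 2836 CPM in p21mTertCD. Nkg7, a protein of cytotoxic granules, stood at 143, 101 and 126 CPM against 633 and 261 CPM. Fasl, the ligand that kills cells bearing Fas, stood at 13, 7.59 and 9.89 CPM against 40.5 and 26.1 CPM. In all of these both p21mTertCD libraries were above every p21Het library, replicate 1 by the wider margin. Ccl5 rose by 1.86 ± 0.26, Nkg7 by 1.95 ± 0.32 and Fasl by 1.81 ± 0.25 (adjusted p = 0.0207, 0.0373 and 0.0176 in edgeR). Ms4a4b, a T cell membrane protein, stood at 254, 165 and 253 CPM against 853 and 598 CPM (1.78 ± 0.20, adjusted p = 0.00859). Wdr95 stood at 3.56, 2.15 and 2.07 CPM against 24.2 and 10.8 CPM (2.86 ± 0.35, adjusted p = 0.0124 in edgeR). For all 5 genes WT and every p21mTert library were above every p21Het library too. WT stood at 1569, 188, 16.3, 340 and 7.35 CPM for Ccl5, Nkg7, Fasl, Ms4a4b and Wdr95. In the same order p21mTert ranged from 1491 to 2581, 202 to 282, 16.8 to 25.9, 332 to 371 and 3.92 to 6.17 CPM. Nkg7 of p21mTertCD replicate 2 lay inside its p21mTert range. Without p21mTertCD replicate 1, the number of called genes was 15, and Ccl5, Nkg7, Fasl and Wdr95 were no longer called (adjusted p 0.106, 0.133, 0.104 and 0.0541), with log2 fold changes of 1.61, 1.14, 1.43 and 2.13. The count was 17 without p21Het replicate 2, 20 without p21Het replicate 1 and 184 without p21mTertCD replicate 2. Fasl and Wdr95 were also not called without p21Het replicate 2 (adjusted p 0.0627 and 0.0598), Ccl5 without p21Het replicate 1 or 2 (0.0799 and 0.0951), and Nkg7 without p21Het replicate 1, 2 or 3 (0.0961, 0.156 and 0.0641). Ms4a4b was called with any 1 of the 5 libraries left out. With a term for the deposit 36 genes were called, 32 of them among the 69, and of the 5 genes above Nkg7 lost its call (1.90, adjusted p = 0.0948). Within the later deposit alone 9 genes were called and the log2 fold changes were 1.82 for Ccl5, 1.99 for Nkg7, 1.94 for Fasl, 1.81 for Ms4a4b and 3.06 for Wdr95, none of these called (adjusted p 0.0791 to 0.163). A fit of only the 5 libraries called 0 genes. With the cells of the B cell gate left out of the immune sums 75 genes were called, 55 of them among the 69 called with those cells.

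Parts of the T cell receptor and of its signalling were among the other called genes. Receptor parts Cd3d, Cd3e, Cd3g, Trac and Trbc2, the co-receptor chains Cd8a and Cd8b1, the kinases Lck and Zap70, the adaptor Lat and the surface proteins Cd5, Cd6, Cd27 and Thy1 all rose. They were picked for description after their values were seen, and the genes that rose also included Rcn1, a calcium-binding protein of the endoplasmic reticulum, Nefh, a neurofilament subunit, and Dnajc15, a mitochondrial co-chaperone. Lck, the kinase that starts receptor signalling, had 59.5, 60.7 and 61.2 CPM in p21Het and 149 and 132 CPM in p21mTertCD (1.29 ± 0.12, adjusted p = 0.00408). Cd8a, which marks cytotoxic T cells, had 23.3, 22.6 and 20.8 CPM against 60.3 and 71.3 CPM (1.64 ± 0.25, adjusted p = 0.0278). The p21Het values lay within a few percent of each other in Lck, and replicate 2 was the higher p21mTertCD library in Cd8a. For Lck, WT at 88.5 CPM and p21mTert at 88.9 to 105 CPM were also above every p21Het library. For Cd8a WT and p21mTert were above them too, at 38.3 and 29.6 to 55.1 CPM. In bulk sums of this kind, more T cells among the immune cells and more RNA per T cell cannot be told apart. Of the 66 genes that rose, 64 had their highest mean p21Het level in the T cell gate, 1 (H2-M3) in the B cell gate and 1 (Vsig8) in the myeloid gate. Cd3d, Cd3e and Cd3g are among the 64 and define the T cell gate, so their place was fixed beforehand. No share over all genes was taken for this count.

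The list of cytotoxic effectors had all 13 members tested in immune cells. Of these 4 were called higher, where 0.408% of all genes were. An unadjusted p under 0.05 in that direction was found for 11, where 4.81% of all genes had one. Its median log2 fold change was 1.81, against -0.01 over all genes. Cst7, an inhibitor of granule proteases, had the smallest adjusted p of the 4, with 17.7, 15.1 and 15.4 CPM in p21Het and 55.9 and 47.0 CPM in p21mTertCD (1.76 ± 0.14, adjusted p = 0.0013 in edgeR). Ccl5, Nkg7 and Fasl were the other 3, while granzyme B and perforin were not called. For Cst7, WT at 27.1 CPM and p21mTert at 22.3 to 28.6 CPM were also above every p21Het library. Granzyme B (Gzmb) stood at 20.4, 15.7 and 25.7 CPM against 124 and 62.2 CPM (adjusted p = 0.276), and perforin (Prf1) at 29.8, 22.2 and 34.8 CPM against 71.4 and 50.7 CPM (adjusted p = 0.388). Ifng, which encodes interferon-gamma, stood at 11, 6.02 and 3.42 CPM against 32.3 and 12.5 CPM (adjusted p = 0.234). All 3 were higher in both p21mTertCD libraries, and the p21mTert libraries reached 97.5 CPM for Gzmb and 20.8 CPM for Ifng. Granzymes K and M differed in opposite directions between the p21mTertCD libraries: Gzmk was 73.7 CPM in p21mTertCD replicate 1 and 13 in replicate 2, and Gzmm was 13.3 and 72.9. Gzmb, Prf1, Ifng, Gzmk and Gzmm, like Lck and Cd8a, were picked for description after their values were seen.

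Eomes, a transcription factor of memory and cytotoxic T cells, also rose in immune cells, from 23, 14.8 and 16.2 CPM to 49.0 and 47.3 CPM (1.51 ± 0.17, adjusted p = 0.00859 in edgeR). It was the called member of the checkpoint and exhaustion list, in which 6 of 12 genes tested had an unadjusted p under 0.05 on the higher side (4.81% of all genes did, and 0.408% were called higher). For Eomes, WT at 27.4 CPM and p21mTert at 28.2 to 39.9 CPM were also above every p21Het library. Pdcd1, which encodes PD-1, stood at 6.08, 8.89 and 4.72 CPM in p21Het. It stood at 52.0 CPM in p21mTertCD replicate 1 and 9.10 CPM in replicate 2, so the higher group mean came from 1 library (adjusted p = 0.281).

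Within the T cell gate 13 of 13073 genes were called (0.0994%), 7 higher (0.0535%) and 6 lower (0.0459%). Both p21mTertCD libraries were above all 3 p21Het libraries for 6.92% of all genes in the gate, and below them for 16.3%. The gate's sums also held RNA of other cells: alveolar type 2 markers summed to 448 to 4276 CPM in p21Het and to 1692 and 684 CPM in p21mTertCD, and neutrophil markers to 471 to 2083 CPM and to 2307 and 660 CPM, while T cell markers summed to 4462 to 4930 CPM and to 6368 and 5117 CPM. Cst7 was again higher, at 69.7, 56.5 and 63.3 CPM in p21Het and 145 and 124 CPM in p21mTertCD (1.16 ± 0.10, adjusted p = 0.00202 in edgeR). Eomes stood at 69.9, 61.6 and 62.1 CPM against 128 and 124 CPM (1.04 ± 0.15, adjusted p = 0.0398). For both genes the p21mTertCD libraries lay above every p21Het library. WT and every p21mTert library did so too. WT stood at 89.7 CPM for Cst7 and 86.5 CPM for Eomes, and p21mTert at 72.1 to 80.2 and 82.1 to 115 CPM. Wdr95, Xaf1, Thap3 and Ifi27 were among the others that rose. Xaf1 and Ifi27 are interferon-induced genes. The reference libraries were all above every p21Het library for Xaf1 and Thap3, but not for Wdr95 and Ifi27.

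The 6 that fell in T cells were Trat1, Myb, Nebl, Stmn2, Kcnmb4 and the unnamed gene Gm20478. Markers of type 2 innate lymphoid cells and mast cells or basophils in the gate summed to 377, 420.4 and 359 CPM in p21Het and to 318 and 229 CPM in p21mTertCD, with 4 of 10 below every p21Het library, and their part in these falls was not tested. Trat1, an adaptor that stabilises the T cell receptor complex, stood at 58.7, 60.5 and 63.1 CPM in p21Het and 17.9 and 26.9 CPM in p21mTertCD (-1.36 ± 0.18, adjusted p = 0.0398 in edgeR). Myb, a transcription factor of progenitor cells and of less differentiated T cells, stood at 37.9, 54.2 and 37.6 CPM against 12.3 and 15 CPM (-1.60 ± 0.22, adjusted p = 0.0398). It had also fallen in the immune sums, from 14.4, 13.9 and 9.99 CPM to 5.67 and 6.70 CPM (-0.97 ± 0.16, adjusted p = 0.0406). Ldhb, a lactate dehydrogenase subunit, was the third gene that fell there, from 23.4, 18.7 and 17.1 CPM to 9.30 and 10.8 CPM (-0.89 ± 0.15, adjusted p = 0.0447). Each of these 2 immune calls rested on single libraries: Myb was not called with any 1 left out other than p21Het replicate 3 (adjusted p 0.0576 to 0.239), and Ldhb not with any 1 of the 5 left out (0.0576 to 0.264). With a term for the deposit neither was called (adjusted p 0.077 and 0.0685). Sox4, a transcription factor of developing lymphocytes, had 20.9, 19.5 and 13 CPM against 5.76 and 9.36 CPM (adjusted p = 0.0871). Atp1b1 (-0.85) and Car2 (-0.83) were likewise lower in both p21mTertCD libraries and not called (adjusted p = 0.201 and 0.238).

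The number of genes called in the T cell gate moved widely with the libraries used. It was 1, 1 and 2 without p21Het replicates 1, 2 and 3, 7 without p21mTertCD replicate 1, 661 without p21mTertCD replicate 2, 1 with the later deposit alone or with a term for the deposit and 314 with DESeq2. Of the 66 genes that rose in the immune sums, 62 were tested in the T cell gate, where 5 were called, 50 had an unadjusted p under 0.05 on the higher side (6.8% of all genes did) and the median log2 fold change was 0.63 against 1.28 in the immune sums. Prf1 was 39.9, 36.6 and 51.7 CPM in the gate against 159 and 105 CPM (1.69 ± 0.31, adjusted p = 0.076 in edgeR). Gzmb was 30.4, 14.4 and 50.1 CPM against 279 and 142 CPM (adjusted p = 0.201), inside the p21mTert range of 36.6 to 228 CPM for replicate 2 and above it for replicate 1. Natural killer markers in the gate summed to 228, 218 and 483 CPM in p21Het and 848 and 473 CPM in p21mTertCD; 3 of the 9 were higher in both p21mTertCD libraries than in all p21Het libraries. Their part in the result was not tested.

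**Figure D3:**
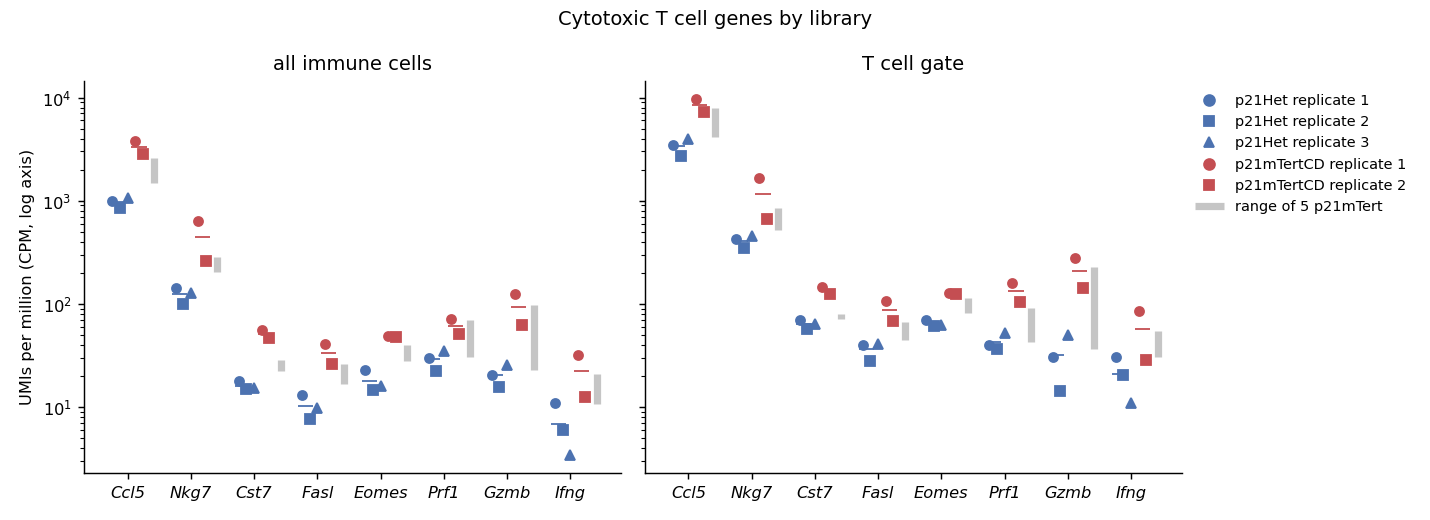
Levels of 8 cytotoxic genes in CPM on a log axis, in all immune cells (left) and in the T cell gate (right), 1 point per library of p21Het and p21mTertCD. Ccl5 reaches 3813 and 2836 CPM in the immune cells of p21mTertCD, and p21mTertCD replicate 1 is the highest library for most of the genes. Gzmk and Gzmm are not drawn.

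In immune cells 4 members of 3 interferon-linked lists were called higher, where 0.408% of all genes were. Many more members had an unadjusted p under 0.05 on the higher side, where 4.81% of all genes had one. The antiviral list (29 tested, median log2 fold change 0.98) had 1 called member and 17 with such a p. For the GTPases it was 1 and 12 of 14 tested (median 0.79), and for class I antigen presentation 2 and 14 of 18 (median 0.48). In 18 of the 29, 12 of the 14 and 15 of the 18 both p21mTertCD libraries were above all 3 p21Het libraries (6.42% of all genes). No tested member of the 3 lists had an unadjusted p under 0.05 on the lower side, where 3.04% of all genes had one. T cell markers were higher in the same sums (918 to 946 CPM against 2372 and 1858 CPM), and Ifit2, Igtp and H2-Q7 each had their highest mean p21Het level of the 3 immune gates in the T cell gate. The part of T cell RNA in these differences was not tested. Ifit2, an antiviral protein that binds RNA, rose from 6.62, 4.34 and 4.43 CPM to 10.3 and 10.2 CPM (1.08 ± 0.18, adjusted p = 0.0437 in edgeR). Igtp rose from 16.3, 17.4 and 20.7 CPM to 29.4 and 37.4 CPM (0.94 ± 0.15, adjusted p = 0.0359). H2-Q7, a non-classical class I molecule, rose from 333, 321 and 272 CPM to 548 and 482 CPM (0.82 ± 0.13, adjusted p = 0.0284), and H2-T22 by 0.48 ± 0.08 (adjusted p = 0.0459). Both lie on chromosome 17, as Cdkn1a does, at 35439155-35443773 and 36037128-36042747. The part of linkage was not tested. All reference libraries were above every p21Het library for H2-Q7 (WT 406, p21mTert 375 to 430 CPM) and Igtp (21.7, 22.2 to 25.6 CPM). They were not all above it for Ifit2 (4.50, 4.55 to 6.20 CPM) and H2-T22 (99.8, 84.7 to 93.2 CPM, p21Het 73.7 to 88.7 CPM). Without p21Het replicate 1, p21Het replicate 2 or p21mTertCD replicate 1 no member of these 3 lists was called, and 12 to 24 antiviral genes were past an unadjusted p of 0.05 with any 1 of the 5 libraries left out. None was called without the filter on low counts, with the later deposit alone or in a fit of only the 5 libraries either, and with a term for the deposit 1 GTPase was. The shares of all genes past an unadjusted p of 0.05 in the refits are not given here. Ifi47, a GTPase outside the list, rose from 36.8, 28.6 and 37.9 CPM to 61.5 and 77.2 CPM (1.08 ± 0.13, adjusted p = 0.0119). Its values in WT (43.3 CPM) and p21mTert (39.4 to 47.2 CPM) were above every p21Het library too. Class II antigen presentation had no called member and no member past an unadjusted p of 0.05 among 10 tested (median -0.18).

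The most abundant members of these lists were not called. Ifitm3, a membrane protein that blocks virus entry, overlapped between groups in immune cells, at 776, 321 and 1144 CPM in p21Het and 754 and 787 CPM in p21mTertCD. Ifi27l2a stood at 307, 165 and 537 CPM against 821 and 711 CPM, and Gbp7 at 35.7, 42.2 and 39.2 CPM against 94.7 and 53.3 CPM, neither called (adjusted p = 0.388 and 0.163 in edgeR). B2m, the light chain of class I molecules, stood at 1742, 2353 and 1951 CPM against 2999 and 2356 CPM, where p21mTertCD replicate 2 was level with p21Het replicate 2.

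In the myeloid gate 22 of 29 tested antiviral genes had an unadjusted p under 0.05 on the higher side, where 1.41% of all genes did. In 23 of the 29, both p21mTertCD libraries were above all 3 p21Het libraries, against 3.12% of all genes, and the median log2 fold change was 1.07. None had an unadjusted p under 0.05 on the lower side, where 0.989% of all genes did. None was called, and 1 gene of 13546 was called in the gate at all (0.00738%). Ifi27l2a stood at 411, 138 and 609.5 CPM in p21Het and 1008 and 1176 CPM in p21mTertCD. Of the PYHIN family, sensors of DNA, 8 of 11 tested members had an unadjusted p under 0.05 on the higher side (median 0.82). Ifi204 of that family stood at 103, 62.5 and 130.4 CPM against 154 and 184 CPM. Among GTPases 8 of 13 and among class I genes 13 of 18 did (medians 0.87 and 0.35). The antiviral count was 9 without p21Het replicate 2, 14 without p21Het replicate 1 and 24 without p21Het replicate 3. The shares over all genes in these refits are not given here. With single libraries of either group left out the medians ran from 0.80 to 1.37. T cell markers in the myeloid gate summed to 16.2 to 18.1 CPM in p21Het and to 23 and 29.6 CPM in p21mTertCD, without the 3 Cd3 genes, which the gate itself leaves out. Interstitial macrophage markers summed to 2985, 3928 and 3552 CPM against 4542 and 4318 CPM, with 1 of 9 markers above every p21Het library. The part of either in the result was not tested.

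In the T cell gate 18 of 27 antiviral genes had an unadjusted p under 0.05 on the higher side (median 0.97, 1 called), as did 16 of 18 class I genes (median 0.39) and 6 of 14 GTPases (median 0.33). Of all genes in the gate 6.8% had such a p and 0.0535% were called higher. The antiviral genes called numbered 0 without any 1 of the p21Het libraries or with a term for the deposit. Those fits called few genes of any kind, as given above. No class I gene was called without any 1 of the p21Het libraries. Ifi27l2a there stood at 255, 274 and 366 CPM against 669.7 and 452 CPM, and H2-K1, a classical class I heavy chain, at 2168, 1897 and 2019 CPM against 2545 and 2293 CPM. Igtp overlapped between groups, at 52.2, 52.6 and 63.9 CPM against 43.5 and 74.6 CPM. In the B cell gate 2 of 27 antiviral genes and 5 of 13 GTPases had an unadjusted p under 0.05 on the higher side, where 1.4% of all genes did, on 121 cells in p21mTertCD replicate 1. edgeR called 0 of 12828 genes in B cells (0.0%), and 483 (3.77%) had an unadjusted p under 0.05, 2.37% of all on the lower side. DESeq2, which filtered genes in its own way, also called 0. Library values did not overlap for 3.06% of genes there on the higher side and 8.08% on the lower. Differences of effect between the gates were not tested.

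Endothelial cells of p21mTertCD held more RNA of the interferon-gamma GTPases in both libraries, though no gene was called. edgeR called 0 of 11444 genes (0.0%), 507 genes had an unadjusted p under 0.05 in either direction, and DESeq2 called 28. The edgeR count was 39 without p21mTertCD replicate 2. All 14 interferon-gamma GTPases were tested, and all 14 had an unadjusted p under 0.05 on the higher side, where 2.58% of all genes did. All 14 were also higher in both p21mTertCD libraries than in any p21Het library, against 5.72% of all genes (7.51% were below). Their log2 fold changes ran from 0.97 to 2.71, with a median of 1.65 against -0.01 over all genes. Like the other lists, this one was chosen with earlier results of these data known. Its 14 members were read in the same libraries, so the counts are a description and not independent support.

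Igtp, whose promoter is printed above, stood at 28.4, 33.4 and 26.3 CPM in p21Het and 193 and 83.2 CPM in p21mTertCD, with 23.4 to 44.2 CPM in p21mTert and 32.4 in WT. Irgm2, its neighbour on chromosome 11, stood at 36.6, 44.0 and 44.0 CPM against 156 and 94.0 CPM. Gbp7, the most abundant GTPase of the list, stood at 141, 111 and 130.1 CPM against 448 and 232 CPM. In each the p21Het libraries lay close together, both p21mTertCD libraries lay above them, and replicate 1 was above replicate 2. The log2 fold changes were 2.24 ± 0.35, 1.62 ± 0.25 and 1.5 ± 0.24, all with an adjusted p of 0.119 in edgeR. Tgtp2, the widest apart, stood at 1.83, 8.98 and 8.54 CPM against 51.9 and 36.5 CPM (2.71 ± 0.47, adjusted p = 0.139). Tgtp1 and Tgtp2 are near-identical copies, so how reads were split between them is uncertain. Iigp1, which attacks the vacuoles of intracellular parasites, stood at 78.2, 86.4 and 109 CPM against 413 and 169.8 CPM (1.75 ± 0.39, adjusted p = 0.336), and the highest p21mTert library reached 185 CPM.

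The 5 endothelial genes with the smallest p that met the conditions for description were all of this group: besides Igtp, Irgm2 and Gbp7, they were Ifi47 and Gm4951, 2 further immunity-related GTPases. Ifi47 stood at 54.4, 50.3 and 53.2 CPM in p21Het and 155 and 105 CPM in p21mTertCD (1.36 ± 0.18, adjusted p = 0.0845 in edgeR), above the p21mTert range of 46.0 to 66.5 CPM and WT at 74.4 CPM. Gm4951 stood at 38.4, 31.4 and 34.8 CPM against 96.4 and 67.2 CPM (adjusted p = 0.119). On the lower side the 5 were Man1a2 (-0.70), a mannosidase of the Golgi, Inafm2 (-0.61), Mtf1 (-0.67), the metal-sensing transcription factor, Fam46c (-2.74) and Casd1 (-0.40), none called. Man1a2 stood at 73.2, 70.5 and 76.9 CPM against 35.5 and 50.5 CPM, and it was lower in both p21mTertCD libraries in epithelial cells too (-0.72).

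**Figure D4:**
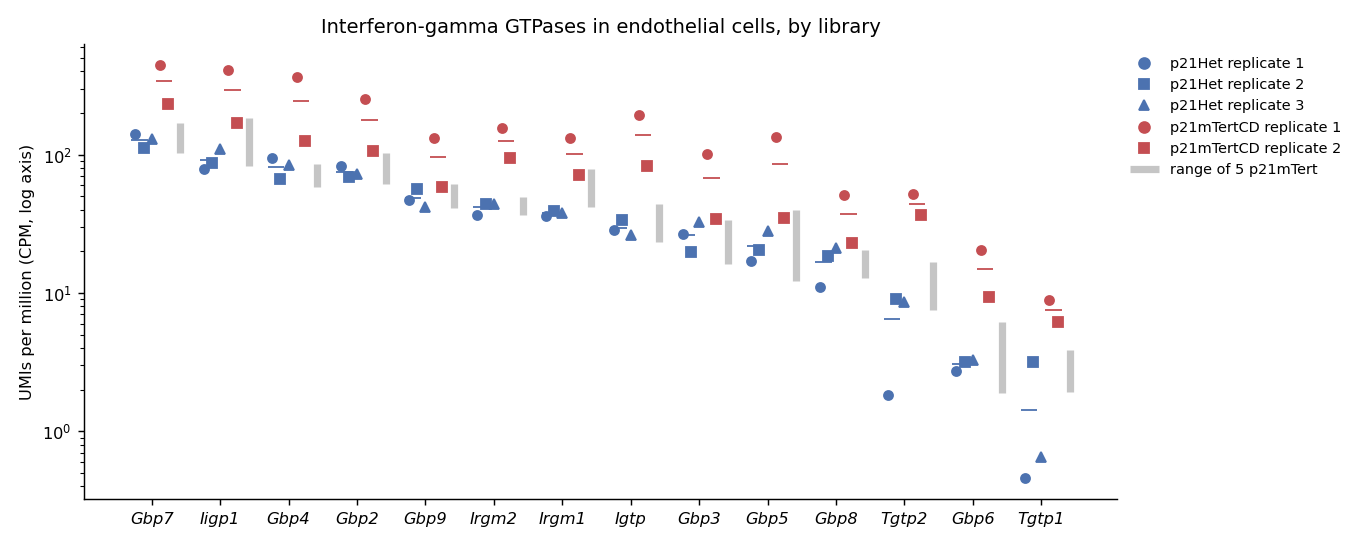
The 14 interferon-gamma GTPases in endothelial cells, in CPM on a log axis, 1 point per library of p21Het and p21mTertCD. For each gene both p21mTertCD libraries lie above the 3 p21Het libraries, as for Igtp at 193 and 83.2 against 26.3 to 33.4 CPM.

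The endothelial sums of p21mTertCD replicate 1 also held T cell RNA. The 12 T cell markers summed to 17.4, 16.6 and 9.85 CPM in p21Het, and to 88.2 CPM in p21mTertCD replicate 1 and 14.0 CPM in replicate 2. Cd3e stood at 0.458, 1.35 and 1.31 CPM against 8.88 and 0.777 CPM, and 3 of the 12 markers were higher in both p21mTertCD libraries. Ccl5 stood at 22, 10.6 and 5.91 CPM against 377 and 21.4 CPM. In replicate 2 T cell markers were within the p21Het range, and all 14 GTPases were above every p21Het library. Mural cell markers, of pericytes and smooth muscle, summed to 176, 86.0 and 60.4 CPM in p21Het and to 254 and 258 CPM in p21mTertCD, with 3 of 10 above every p21Het library. The part of T cell or mural RNA in the GTPase difference was not tested. Fitted without replicate 1, all 14 remained higher and the median log2 fold change was 0.87. Without replicate 2 the median was 2.22. DESeq2 called 9 of the 14, and edgeR without the filter on low counts 8. The other alternatives kept all 14 at an unadjusted p under 0.05 with medians from 1.54 to 1.70.

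Other interferon-linked lists in endothelial cells differed in how many members had a low p. Of 25 antiviral genes tested 21 had an unadjusted p under 0.05 on the higher side (median 0.96), of 18 class I genes 14 (median 0.57), and of 9 class II genes 7 (median 0.78), where 2.58% of all genes did. Of 8 PYHIN genes 1 did, with log2 fold changes from -0.57 to 0.90 (median 0.54), and 2 were higher in both p21mTertCD libraries than in any p21Het library. Ciita, the master activator of class II genes, stood at 39.3, 36.1 and 30.2 CPM in p21Het and 139 and 63.3 CPM in p21mTertCD (1.54 ± 0.30, adjusted p = 0.228 in edgeR). Cd74, the class II invariant chain, stood at 792, 1941 and 1441 CPM against 3002 and 2047 CPM (adjusted p = 1), and B2m at 1617, 2067 and 1866 CPM against 3563 and 2590 CPM (adjusted p = 0.64). Both p21mTertCD libraries were the highest in each of these, with replicate 1 above replicate 2. Without replicate 1 the median of the antiviral genes was 0.47. The abundant antiviral genes Ifitm3 (1555, 1550 and 2232 CPM against 2061 and 1912 CPM) and Bst2 (405, 465 and 527 CPM against 581 and 516 CPM) overlapped between groups.

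Of 30 genes of vessel identity tested in endothelial cells none had an unadjusted p under 0.05 in either direction, a count near the share over all genes (2.58% on the higher side and 1.85% on the lower). Their log2 fold changes ran from -0.92 to 0.30 with a median of -0.02. Ptprb, a phosphatase of endothelial junctions, stood at 2511, 2088 and 3014 CPM in p21Het and 2380 and 2557 CPM in p21mTertCD, and Calcrl, the adrenomedullin receptor, at 1722, 1759 and 1945 CPM against 2074 and 2100 CPM. Marker sums of the 2 capillary types overlapped: general capillary 6493, 6220 and 7562 CPM against 6364 and 6394 CPM, and aerocytes 2665, 1725 and 1199 CPM against 1469 and 1962 CPM. Of 20 genes of VEGF, apelin, endothelin and angiopoietin signalling 2 had an unadjusted p under 0.05, both higher: the VEGF receptors' partner Nrp2 (0.64) and the lymphatic receptor Flt4 (0.47), neither called. The sum of 8 lymphatic endothelial markers, Flt4 among them, was higher in both p21mTertCD libraries, at 2777, 3249 and 3909 CPM against 4713 and 3994 CPM, with 2 markers above every p21Het library. Its part in these differences was not tested. Flt1, a VEGF receptor, stood at 1003, 794 and 1102 CPM against 955 and 1002 CPM. Among 12 leukocyte adhesion genes none had an unadjusted p under 0.05, and Pecam1 stood at 1374, 1202 and 1397 CPM against 1487 and 1173 CPM.

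The difference of the p21mTertCD effect between kinds of cell was tested with an interaction term. The p21mTertCD effect on Igtp was 1.20 ± 0.50 larger on the log2 scale in endothelial than in immune cells (adjusted p = 0.786), that on Irgm2 0.87 ± 0.28 larger (adjusted p = 0.593) and that on Tgtp2 1.66 ± 0.49 larger (adjusted p = 0.529). For Gbp7 the difference was 0.49 ± 0.25 (adjusted p = 0.878). Over the 14 GTPases it ran from 0.33 ± 0.32 for Gbp2 to 1.72 ± 0.66 for Gbp6, with none called. By edgeR 0 of 15378 genes were called for endothelial minus immune cells (0.0%), where 891 had an unadjusted p under 0.05 (5.79%), and 4 for epithelial minus immune cells (0.026%).

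In epithelial cells edgeR called 1 of 13058 genes (0.00766%), and it rose: Slamf8, a receptor of the SLAM family better known from macrophages. It stood at 0.267, 0.910 and 0.547 CPM in p21Het, from 2, 10 and 2 UMIs, and at 16.0 and 11.9 CPM in p21mTertCD, from 80 and 51 UMIs. Both p21mTertCD libraries were far above the p21Het libraries and above the p21mTert range of 0.184 to 0.750 CPM (4.42 ± 0.46, adjusted p = 0.0101). In immune cells the same gene was lower in both p21mTertCD libraries, at 10.3, 8.93 and 11.5 CPM against 6.25 and 7.77 CPM (-0.48, adjusted p = 0.625). In endothelial cells it was below the count filter, on 0, 1 and 0 UMIs in p21Het and 2 and 3 UMIs in p21mTertCD. The epithelial call was lost without p21mTertCD replicate 1 (adjusted p = 0.18), p21mTertCD replicate 2 (0.0629) or p21Het replicate 3 (0.087), with log2 fold changes of 4.17, 4.65 and 4.35. Within the later deposit alone the log2 fold change was 4.00 (adjusted p = 0.0577), and in a fit of only the 5 libraries 4.43 (adjusted p = 0.324).

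The next epithelial genes were not called, though their library values did not overlap, which held for 7.45% of all genes on the higher side and 5.04% on the lower. Ccl5 stood at 6.01, 3.09 and 2.46 CPM in p21Het and 17.8 and 18.0 CPM in p21mTertCD (2.15 ± 0.30, adjusted p = 0.0712 in edgeR), beside T cell markers that summed to 4.10 to 12.7 CPM and to 13 and 12.2 CPM. The part of T cell RNA in that difference was not tested. Uhrf1bp1 stood at 9.75, 8.37 and 9.57 CPM against 23.4 and 19.7 CPM (adjusted p = 0.0712), but p21mTert lay between 18.5 and 25.9 CPM and WT at 18.2 CPM, so the p21mTertCD values lay within the p21mTert range. Egr3, an immediate early transcription factor, stood at 10.7, 14.4 and 21.9 CPM against 37.1 and 53.3 CPM (adjusted p = 0.268), with WT at 38.4 CPM. Lca5, a protein of cilia, was 0.66 higher. On the lower side Nsun7 (-1.02), Cdkn1c (-0.55), which encodes the kinase inhibitor p57, and Gm10600 (-4.34) were named beside Man1a2, all with an adjusted p of 0.926.

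In epithelial cells the medians of the GTPase and antiviral lists rested on p21mTertCD replicate 1. Among 10 GTPases tested 1 had an unadjusted p under 0.05 on the higher side (2.98% of all genes did), with a median of 0.78 that turned to -0.48 without p21mTertCD replicate 1. Among 24 antiviral genes 6 did (median 0.40, -0.14 without that library), and among 18 class I genes none. Irgm1 stood at 13.9, 14.4 and 13.1 CPM in p21Het and 23.2 and 12.6 CPM in p21mTertCD, and Iigp1 at 1.47, 5.46 and 0.273 CPM against 23.4 and 0.468 CPM, so replicate 2 was within or below the p21Het values in both. The surfactant genes had no member past an unadjusted p of 0.05 among 17 (median -0.14). Sftpc, surfactant protein C, stood at 131242, 95399 and 105911 CPM against 79424 and 118899 CPM, and Lyz2 at 23834, 18624 and 21600 CPM against 14762 and 22472 CPM.

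**Figure D5:**
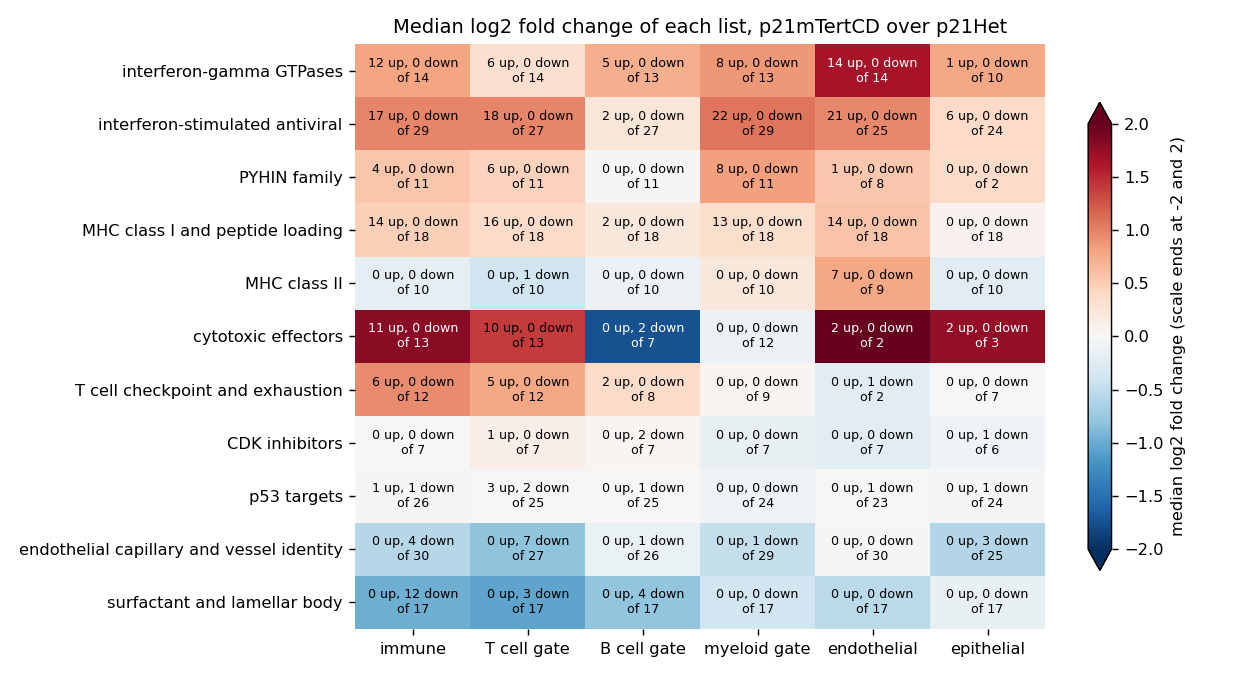
Median log2 fold change (p21mTertCD minus p21Het) of 11 gene lists in 6 kinds of cell, as colour on a scale that ends at -2 and 2, with the number of members at an unadjusted p under 0.05 on the higher and lower side of those tested. The GTPases in endothelial cells (14 of 14, median 1.65) and the antiviral genes in the myeloid gate (22 of 29, median 1.07) have most of their members on the higher side.

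Surfactant transcripts appeared in the immune sums too, where 12 of 17 had an unadjusted p under 0.05 on the lower side (3.04% of all genes did; median -0.97) and none was called. Sftpc there stood at 7531, 3776 and 1661 CPM in p21Het and 1827 and 1685 CPM in p21mTertCD, so the groups overlapped and p21Het replicate 1 was the high library. Alveolar type 2 markers in immune cells summed to 10372, 5736 and 2620 CPM against 2780 and 2554 CPM, and their part in the result was not tested.

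Vsig8 and Slamf8 lie next to each other. Vsig8, an immunoglobulin-domain protein of the cell surface, had the largest log2 fold change among the genes that rose in immune cells and was singled out after its values were seen, being under 10 CPM. It lies at chr1:172555938-172563717 and Slamf8 at chr1:172581758-172590568 (GRCm38). Vsig8 stood at 0.202, 0.358 and 0.123 CPM in p21Het, from 6, 16 and 5 UMIs, and at 9.94 and 7.52 CPM in p21mTertCD, from 466 and 294 UMIs (5.29 ± 0.37, adjusted p = 0.000972 in edgeR). The p21mTert libraries lay between 0.116 and 0.194 CPM. It was the called gene of the myeloid gate, at 0.295, 0.510 and 0.124 CPM against 16.6 and 14.7 CPM (5.68 ± 0.45, adjusted p = 0.00179). Within 2 Mb on each side of the pair, Vsig8 was the called gene among 83 tested in immune cells, and Slamf8 among 54 in epithelial cells. The window was drawn around these called genes, so each count was at least 1 beforehand. Of all genes 0.427% were called in immune and 0.00766% in epithelial cells. In the window 12.0% had an unadjusted p under 0.05 in immune cells (7.85% of all genes) and 9.26% in epithelial cells (5.1%). Cfap45, a gene of cilia next to Vsig8, stood at 6.52, 6.83 and 7.82 CPM in the immune cells of p21Het and 3.33 and 2.53 CPM in p21mTertCD (-1.20, adjusted p = 0.0764). Ciliated cell markers in the same sums were at 131, 83.7 and 78.3 CPM against 73 and 36.8 CPM, with 6 of 9 below every p21Het library, and their part in that difference was not tested.

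Gm20478 fell in the immune sums, from 1.75, 2.24 and 1.99 CPM to 0.107 and 0.0511 CPM (-4.51 ± 0.42, adjusted p = 0.00408 in edgeR), but p21mTert (0.0321 to 0.0646 CPM) and WT (0.075 CPM) were as low as p21mTertCD. It lies at chr17:36167982-36171805 on the plus strand and is annotated as an antisense gene. Gm10600 in epithelial cells stood at 14.7, 5.10 and 15 CPM in p21Het and at 1.00 and 0 CPM in p21mTertCD, with all p21mTert libraries at 0 and WT at 17.4 CPM. Around Cdkn1a itself, the site of the inserted allele, 4 of 234 genes tested within 5 Mb on each side were called in immune cells (Baiap3, 1700097N02Rik, Ubash3a and Pglyrp2), all higher, where 0.408% of all genes were called higher. These 4 had their highest mean p21Het level of the 3 immune gates in the T cell gate, and T cell markers were higher in the same sums. The part of T cell RNA or of the locus in this count was not tested. In the window 8.97% had an unadjusted p under 0.05 in immune cells against 7.85% of all genes. In endothelial cells that share was 7.02% against 4.43%, and in epithelial cells 6.97% against 5.1%, with none called.

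Lists tied to p21 and senescence had counts to be read against 2.58% of all endothelial genes with an unadjusted p under 0.05 on the higher side and 1.85% on the lower. In endothelial cells 0 of 7 inhibitors of cyclin-dependent kinases had an unadjusted p under 0.05, nor did any p53 target of 23 on the higher side (1 on the lower), both near those shares. Btg2, a p53 target that slows division, stood at 724, 625 and 406 CPM in p21Het and 471 and 864 CPM in p21mTertCD, and Cdkn1b at 92.9, 90.0 and 85.4 CPM against 92.3 and 99.9 CPM. Of 23 secreted factors of senescent cells 3 had an unadjusted p under 0.05, all higher. They were Ccl5, Igfbp5 (0.80) and Csf1 (0.48), none called. Ccl5 overlapped between groups, its high value being in p21mTertCD replicate 1 (377 CPM), the library whose endothelial sum held T cell markers at 88.2 CPM. In immune cells, where 0.408% of all genes rose, 1 member of that list of 29 was called, Ccl5, which is also in the cytotoxic list. Of the 13 telomerase and shelterin genes none was called in any of the 3 compartments; Tert and Nhp2 in immune cells and Tert in endothelial cells had an unadjusted p under 0.05 on the higher side, and Terf2ip and Pot1a in epithelial cells on the lower.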

How the data were processed

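The deposited files held raw UMI counts per gene and barcode for each library, made by the authors with Cell Ranger on mm10, per the submitters' processing notes. The authors' 31053 genes were used as given. Doublets were not removed in the main analysis: Scrublet (scanpy 1.11.5) by its own threshold marked 0.0117% to 2.69% of a library's barcodes, and leaving out the highest scores at 0.8% per 1000 barcodes (5.20% to 8.42%) was an alternative. Counts were summed per library and gate with Python 3.11.15. edgeR 4.0.16 (R 4.3.3; filterByExpr, TMM, quasi-likelihood test) was fitted with a group term to the 10 replicated libraries, leaving 7 residual degrees of freedom, and Benjamini-Hochberg adjusted p-values were taken over all genes tested. Differences of effect between compartments came from a fit with library as a block. DESeq2 1.42.0, RLE factors, no filter, other sets of libraries, gates and UMI minimums were alternatives. The B cell gate was left out as an alternative chosen after seeing the data. Shares were compared by exact permutation.

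Genes are named by rule: Tert and Cdkn1a, up to 5 genes in each direction per compartment by fold among those called at 10 CPM or more without overlap (places filled by p), called members of a list and its 2 most abundant members. Other genes were named to describe a list or a locus, after their values were seen. The members and gene lists were chosen with earlier results of these data known. The scripts were tested on simulated counts with known changes. Some genes that the naming rule or the lists would bring in are not reported here.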

Additional observations from a re-analysis of the deposited data

Results flagged for a closer look

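A difference of effect between epithelial and immune cells was called for 4 of 15378 genes tested in edgeR's interaction fit (0.026%). Values are log2 differences, the p21mTertCD effect in epithelial cells minus that in immune cells. For Slamf8 it was 4.87 (adjusted p = 1.24e-05), with epithelial levels of 0.267, 0.910 and 0.547 CPM in p21Het and 16.0 and 11.9 CPM in p21mTertCD, while immune levels were lower in p21mTertCD. For its neighbour Vsig8 it was -4.33 (adjusted p = 0.00847), with immune levels of 0.202, 0.358 and 0.123 CPM in p21Het and 9.94 and 7.52 CPM in p21mTertCD. Piezo2, a mechanically gated ion channel, differed by 2.88 (adjusted p = 0.0312). It stood at 1.87, 1.73 and 4.65 CPM in p21Het and 6.01 and 11.9 CPM in p21mTertCD in epithelial cells, and at 2.52, 1.70 and 1.18 CPM against 0.725 and 0.972 CPM in immune cells. Pla2g16, a phospholipase, differed by -0.99 (adjusted p = 0.0312). It stood at 52.2, 48.9 and 38.1 CPM in p21Het and 78.2 and 70.5 CPM in p21mTertCD in immune cells, and at 119, 96.0 and 127 CPM against 102 and 92.9 CPM in epithelial cells.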

How the results depend on the processing

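No paired analysis was possible because the titles of the 2 groups share a single replicate number, 2 (replicate 1 of p21Het has no number in its title and was numbered only to name it). The tests of the shares cannot pass 0.05 at this number of libraries, so no alternative could change a call there. The endothelial share difference ran from -3.90 to -0.00989 percentage points with single libraries left out (-0.00989 without p21Het replicate 2 and -0.0761 without p21mTertCD replicate 1), and the epithelial one from -3.14 to -1.07, or -0.52 in cells thinned to equal depth. Tert and Cdkn1a in endothelial and epithelial cells were called under none of the alternatives run and kept their direction, Tert in endothelial cells between 1.65 and 3.18 on the log2 scale. The immune share difference ran from -1.12 to 9.66 percentage points with single libraries left out. Tert in immune cells passed the threshold with DESeq2 (1.81) and ran from 1.45 to 2.23 with single libraries left out, and Cdkn1a there from -0.58 to 0.25. With single libraries left out the number of called genes ran from 15 to 184 in immune, 0 to 39 in endothelial and 0 to 2 in epithelial cells, 1 to 661 in the T cell gate, 0 to 3 in the B cell gate and 1 to 1 in the myeloid gate. DESeq2 called 207 genes in immune, 28 in endothelial and 4 in epithelial cells, 314 in the T cell gate and 9 in the myeloid gate. Without the filter on low counts edgeR called 25 in endothelial and 4 in epithelial cells, 62 in the T cell gate and 1 in the B cell gate. Fits of only the 5 libraries compared, with fewer samples to estimate the spread, called 0 genes in immune and epithelial cells and in the T cell and myeloid gates. A term for the deposit gave 36 in immune cells, 2 in epithelial cells and 1 in the T cell gate. The later deposit alone gave 9, with 1 in the T cell gate and 0 in the myeloid gate. Stricter gates gave 1 in endothelial cells, and leaving out likely doublets 17 in epithelial cells. The cause of these shifts was not tested. Of 430 refits of 30 named results, 10 in each of the 3 compartments and without Tert and Cdkn1a, 348 stayed on their side of the threshold, 48 fell below it, 34 passed it and 0 reversed. The 48 were all of the 8 called genes: the call was kept in 13 of 15 refits for Ms4a4b, 11 for Fasl and Wdr95, 10 for Ccl5, 8 for Nkg7, 5 for Myb and 4 for Ldhb in immune cells, and in 9 of 14 for Slamf8 in epithelial cells; Cdkn1a in immune cells reversed in 1 of 15, as given above. Endothelial and epithelial sums rested on 284 to 1076 and 199 to 643 cells a library, and Tert in endothelial cells on 1 to 18 UMIs.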
